A study of Mus musculus with 2 samples.

Results

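The subject is a set of 10 autosomal genes of immature olfactory neurons that serve neurite and axon outgrowth: Gap43, Marcksl1, Gng8, Stmn1, Stmn2, Tubb3, Crmp1, Dpysl3, Dpysl5 and Dbn1. They are listed by name as genes of this stage, on a list drawn up with earlier results of these data known, and are 10 of the 20807 autosomal protein-coding genes in the annotation. Chromatin contacts were measured by in situ Hi-C, in which DNA is cut, here with DpnII, and neighbouring ends are joined and sequenced, in neurons that express the odorant receptor gene Olfr17 (P2). Fluorescence sorting took them from olfactory epithelium, and the donors were adult mice of the 129P2/OlaHsd strain and of mixed sex. The protocol names P2-GFP mice as their source, the labels list no treatment, and all cells share the expressed receptor. The 2 biological replicates, of 23000 and 20000 cells, form 1 group, and the values come from 1 list of domain boundaries called on their combined contacts, so no spread between animals can be given and no other cell type is compared. Since no source used here states how many contacts were read, the depth is unknown. The labels call the cells mature neurons. No expression was measured, so neither that label nor the activity of the 10 genes in these cells could be checked.

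Olfactory neurons are renewed throughout life, and each new cell sends an axon from the epithelium to the olfactory bulb before it matures. Its growth cone is built from dynamic microtubules and actin under a membrane rich in signalling proteins, and the genes studied here encode parts of that machinery. Gap43 and Gng8 are widely used to mark the immature stage in this tissue. A domain boundary in a Hi-C map is a place where contacts from one side to the other are few, and a gene usually contacts sequence on its own side of a boundary more than sequence beyond it.

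The deposited list held 7576 boundaries, 7169 of them on the autosomes. Each is a bin of 5 kb with a score and a class. The score has no stated unit and is compared only within the list, where its median was 0.545. Boundaries classed Weak scored at most 0.4996 and those classed Strong at least 0.5002. Distances below run from the annotated 5' end of a gene, taken as its transcription start site (TSS), to the midpoint of a boundary bin. A bin reaches 2.5 kb to either side of its midpoint, which limits their precision. The interval of a gene is the stretch between the boundaries that flank its TSS. Other TSSs counted or named below are those of protein-coding genes, except where genes of any type are stated. Coordinates are 1-based on GRCm38.

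Counts of genes with a boundary close to the TSS were small, and they were not tested against the shares of all genes. Stmn2, at 11.9 kb, was the gene with a boundary within 25 kb of its TSS, 1 of 10 genes, against 24.3% of all autosomal protein-coding genes. None had one within 10 kb (11.7% of all genes), and Stmn2, Gng8 and Dbn1 had one within 50 kb (43.7% of all genes). The median distance to the nearest boundary was 66.6 kb for the 10 genes and 58.4 kb for all genes, an order that was not kept in other settings. It was 57.6 kb for the 10 genes and 58.8 kb for all genes from the starts of principal transcripts, and with Strong boundaries alone it was 70.0 kb for the 10 genes and 97.0 kb for all genes. Their intervals were 100 to 585 kb long with a median of 190 kb, against 270 kb for all genes. With Strong boundaries alone the medians were 447.5 kb for the 10 genes and 460 kb for all genes, and with boundaries scoring at or above the median of the list they were 447.5 and 495 kb. No 2 of the genes shared an interval. Marcksl1 and Stmn1, 4.95 Mb apart on chromosome 4, had 21 boundaries between them, and Dpysl5 and Crmp1, 6.53 Mb apart on chromosome 5, had 27.

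**Figure D1:**
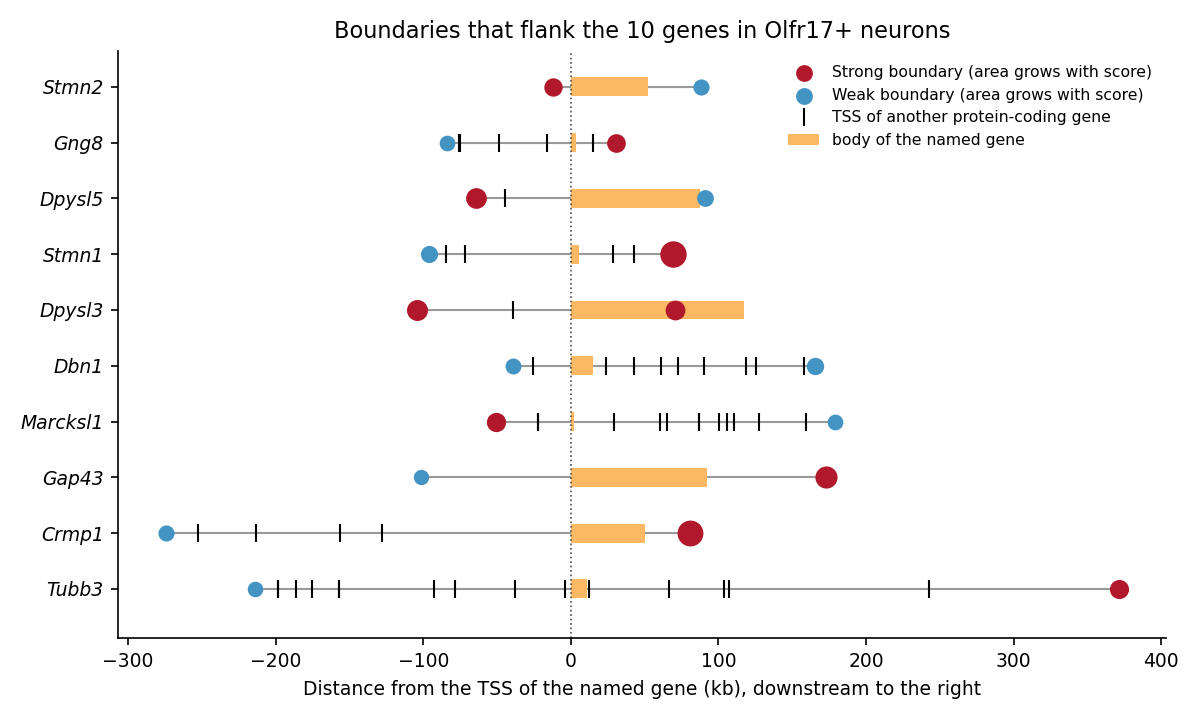
Boundaries on both sides of each of the 10 genes, with distance from the gene's TSS in kb on the horizontal axis and transcription running to the right. Red and blue points are Strong and Weak boundaries with area growing with score, orange bars are gene bodies and ticks are other protein-coding TSSs; Stmn2 has the shortest interval (100 kb), Tubb3 the longest (585 kb), and only the body of Dpysl3 is crossed by a boundary.

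Among the genes of membrane-associated proteins of the growth cone, Gap43 had the only protein-coding TSS of its interval. Gap43, a phosphoprotein of growing axon tips, lies on the minus strand of chromosome 16 at 42248442 to 42340651 (ENSMUSG00000047261.9). Its upstream boundary, 102 kb from the TSS, was Weak with a score of 0.252. The downstream one, 173 kb from the TSS and 80.9 kb beyond the end of the gene, was Strong with a score of 1.13. That downstream boundary (42165001 to 42170000) overlaps an exon of Lsamp, the gene of a neuronal adhesion protein whose TSS lies 2183 kb farther on. The interval of 275 kb held the TSSs of 4 annotated genes of any type, of which Gap43 was the only protein-coding one. The nearest other protein-coding TSS, of the transcription factor gene Zbtb20, was 535 kb away. An interval without another protein-coding TSS was found for 8.56% of all genes, and among the 10 genes for Gap43 and Stmn2.

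Marcksl1, which encodes a membrane-bound substrate of protein kinase C that binds actin, had the opposite surroundings. It is a gene of 2.40 kb on the plus strand of chromosome 4 at 129513581 to 129515985 (ENSMUSG00000047945.6), in an interval of 230 kb with 12 other protein-coding TSSs. The Strong boundary upstream (score 0.719) lay 51.1 kb from its TSS and 0.919 kb from that of Bsdc1. The Weak boundary downstream (score 0.296) lay 179 kb away, 4.34 kb from the TSS of Tmem39b. The nearest genes in the interval were Fam229a at 22.4 kb and Tssk3, which encodes a testis kinase, at 22.6 kb, both upstream, and Hdac1, which encodes a histone deacetylase, at 29.1 kb downstream. Marcksl1 had 30 other TSSs within 500 kb, where Gap43 had 0.

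Gng8 encodes a gamma subunit of heterotrimeric G proteins and lies on the plus strand of chromosome 7 at 16891786 to 16895436 (ENSMUSG00000063594.5). Its interval of 115 kb was the second shortest of the set, and 3.77% of all genes had one under 120 kb. With Strong boundaries alone the interval of Gng8 was 295 kb. The nearest boundary was Strong (score 0.646) and lay 30.7 kb downstream, 1.61 kb from the TSS of the calmodulin gene Calm3. The upstream boundary was Weak (score 0.292) at 84.3 kb. Between them lay 5 other protein-coding TSSs. The nearest were those of Ptgir, the prostacyclin receptor gene, at 14.7 kb, of Dact3 at 16.5 kb and of the kinase gene Prkd2 at 48.9 kb.

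The genes of microtubule proteins ranged over the whole span of distances and intervals. Stmn1 and Stmn2 encode stathmins, which bind tubulin dimers and favour the shortening of microtubules. Stmn2, on the plus strand of chromosome 3 at 8509360 to 8561606 (ENSMUSG00000027500.10), had the nearest boundary of the set, a Strong one (score 0.601) 11.9 kb upstream at 8495001 to 8500000. Its downstream boundary was Weak (score 0.341) at 88.1 kb. This interval of 100 kb was the shortest of the 10, a length reached or undercut by 1.59% of all genes, and Stmn2 was the only annotated gene of any type with its TSS inside. The body of Stmn2 covered 52.2% of it. With Strong boundaries alone the interval of Stmn2 was 415 kb, against a median of 460 kb for all genes. In that setting Dpysl3 had the shortest interval of the 10, at 175 kb. The nearest other protein-coding TSS, of the Notch target gene Hey1, lay 158 kb away beyond the Weak boundary. On the other side the first protein-coding TSS was that of Il7, 884 kb past the Strong one.

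Stmn1, on the plus strand of chromosome 4 at 134468320 to 134473843 (ENSMUSG00000028832.11), lay in a denser interval of 165 kb with 5 other protein-coding TSSs. Its nearest boundary, 69.2 kb downstream at 134535001 to 134540000, had the highest score at the 10 genes, 1.86, which 95.1% of all boundaries do not exceed. This bin overlaps exons of Mtfr1l and Selenon, and the TSS of Mtfr1l is 2.11 kb from its midpoint. The upstream boundary was Weak (score 0.447) at 95.8 kb, in Extl1. In between, the nearest TSSs were those of Paqr7, which encodes a progestin receptor of the membrane, at 28.4 kb, of Aunip at 42.7 kb and of Mtfr1l at 67.1 kb.

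Tubb3, which encodes the beta tubulin typical of neurons, lay farthest from any boundary. The gene is on the plus strand of chromosome 8 at 123411424 to 123422015 (ENSMUSG00000062380.4). The boundaries were 214 kb upstream (Weak, score 0.276) and 371 kb downstream (Strong, score 0.701), and the upstream one lay in Dpep1, a dipeptidase gene. Both midpoints also lay in the body of Gm20388, annotated as a protein-coding gene. Of all genes, 7.97% had no boundary within 200 kb on either side. The interval of 585 kb held 15 other protein-coding TSSs, of which Mc1r, the pigment receptor gene, was 4.32 kb upstream, Def8 12.1 kb downstream and Tcf25 37.7 kb upstream. It held the TSSs of 78 annotated genes of any type. The next interval upstream was only 95 kb long and the next downstream 145 kb.

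The collapsin response mediator proteins carry guidance signals such as semaphorins to the cytoskeleton, and 3 of the genes encode them. Crmp1 lies on the plus strand of chromosome 5 at 37241940 to 37292133 (ENSMUSG00000029121.16). It had a Strong boundary of score 1.75 at 80.6 kb downstream, 30.4 kb beyond its end and within Evc, a gene of primary cilia whose TSS was 14.4 kb from the midpoint. The upstream boundary was Weak (score 0.334), 274 kb away in Wfs1. The 4 other protein-coding TSSs of this interval of 355 kb were all upstream of Crmp1. The nearest were those of Jakmip1, which the annotation lists as 2 genes, at 128 and 214 kb. That of Gm1043 lay between them at 157 kb. The nearest other protein-coding TSS of all, that of Evc at 95.0 kb, lay beyond the Strong boundary.

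Dpysl5, on the same strand and chromosome at 30711564 to 30799375 (ENSMUSG00000029168.14), filled 56.7% of its interval of 155 kb. The Weak boundary downstream (30800001 to 30805000, score 0.408) lay 90.9 kb from the TSS but only 3.12 kb past the end of the gene. Beyond it the first protein-coding TSS was that of Mapre3, which encodes a protein of growing microtubule ends, at 12.1 kb. Upstream, a Strong boundary (score 0.917) lay 64.1 kb away and 0.433 kb from the TSS of Slc35f6. The other protein-coding TSSs inside were those of Slc35f6 at 63.6 kb and of Cenpa, which encodes the centromeric histone, at 44.8 kb.

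Dpysl3 was the member with Strong boundaries on both sides and the 1 gene of the 10 whose body held a boundary. It lies on the minus strand of chromosome 18 at 43320984 to 43438286 (ENSMUSG00000024501.20). The upstream boundary (score 0.957) lay 104 kb from the TSS, within Jakmip2. The downstream boundary (43365001 to 43370000, score 0.793) lay 70.8 kb from the TSS, inside Dpysl3, in a bin with no annotated exon of a protein-coding gene. The principal transcript of Dpysl3 starts at 43393377, downstream of the 5' end of the gene, and from that start the same boundary was 25.9 kb away. The only other protein-coding TSS in the interval of 175 kb was that of Eif3j2, 39.5 kb upstream.

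Members of the Jakmip, Stk32 and Ppp2r2 families lie near 2 of the 10 genes, Crmp1 and Dpysl3, and near paralogues that are not among the 10, and the boundaries divide the copies of this neighbourhood differently. JAKMIP proteins bind Janus kinases and microtubules, Stk32 genes encode protein kinases and Ppp2r2 genes encode regulatory subunits of protein phosphatase PP2A. No boundary separated the TSS of Crmp1 from that of either Jakmip1 entry. The TSSs of Dpysl3 and Jakmip2, 249 kb apart, had 1 Strong boundary between them. Those of Dpysl4 and Jakmip3, 145 kb apart on chromosome 7, had 1 Weak boundary between them. A Strong boundary separated Crmp1 from Stk32b (475 kb), Dpysl3 from Stk32a (231 kb) and Dpysl4 from Stk32c (127 kb), 1 in each case. Towards the Ppp2r2 gene there was 1 Weak boundary for Crmp1 (Ppp2r2c, 373 kb) and for Dpysl4 (Ppp2r2d, 240 kb), 1 Strong one for Dpysl2 (Ppp2r2a, 204 kb on chromosome 14), and 2 Strong ones for Dpysl3 (Ppp2r2b, 379 kb). Within 1500 kb, Dpysl5 had none of these neighbours. These families were chosen after their positions were seen, and the distances between the genes differ, so the counts are a description.

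Dbn1 encodes drebrin, which binds actin filaments in growing neurites. It lies on the minus strand of chromosome 13 at 55473429 to 55488111 (ENSMUSG00000034675.17) and was the member with Weak boundaries on both sides. These lay 39.4 kb upstream (score 0.319), 1.80 kb from the TSS of Dok3, and 166 kb downstream (score 0.480), 0.554 kb from the TSS of Rab24. The interval of 205 kb held 9 other protein-coding TSSs. The nearest were those of Prr7 at 23.8 kb downstream, Pdlim7 at 25.6 kb upstream and the kinase gene Grk6 at 43.0 kb downstream. The nearest Strong boundary was 284 kb upstream.

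Set among all autosomal protein-coding genes, the distances to the nearest boundary spread widely, and the place of the intervals depended on which boundaries were counted. The share of all genes with a distance no greater was 13.2% for Stmn2, 28.8% for Gng8 and 35.6% for Dbn1, and 73.8% for Gap43 and 92.9% for Tubb3 at the far end. The other 5 genes fell between 44.6% (Marcksl1) and 64.0% (Crmp1). For interval length, 7 of the 10 genes were below the median of all genes, and Gap43, Crmp1 and Tubb3 were above it, at 51.7%, 68.7% and 88.6%. With Strong boundaries alone, 5 of the 10 were below the median of all genes. With all boundaries counted, the lowest shares were those of Stmn2 at 1.59%, Gng8 at 3.77% and Dpysl5 at 14.1%. The median number of protein-coding TSSs in an interval was 5.5 for the 10 genes, each counted with its own, and 6 for all genes. With 16, 13 and 10 TSSs, Tubb3, Marcksl1 and Dbn1 were in intervals of at least 10 TSSs, as were 28.5% of all genes. Per 100 kb of interval there were 0.364 TSSs for Gap43, the lowest density of the 10, and 5.65 for Marcksl1, the highest. No test was made of the 10 genes against the others.

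**Figure D2:**
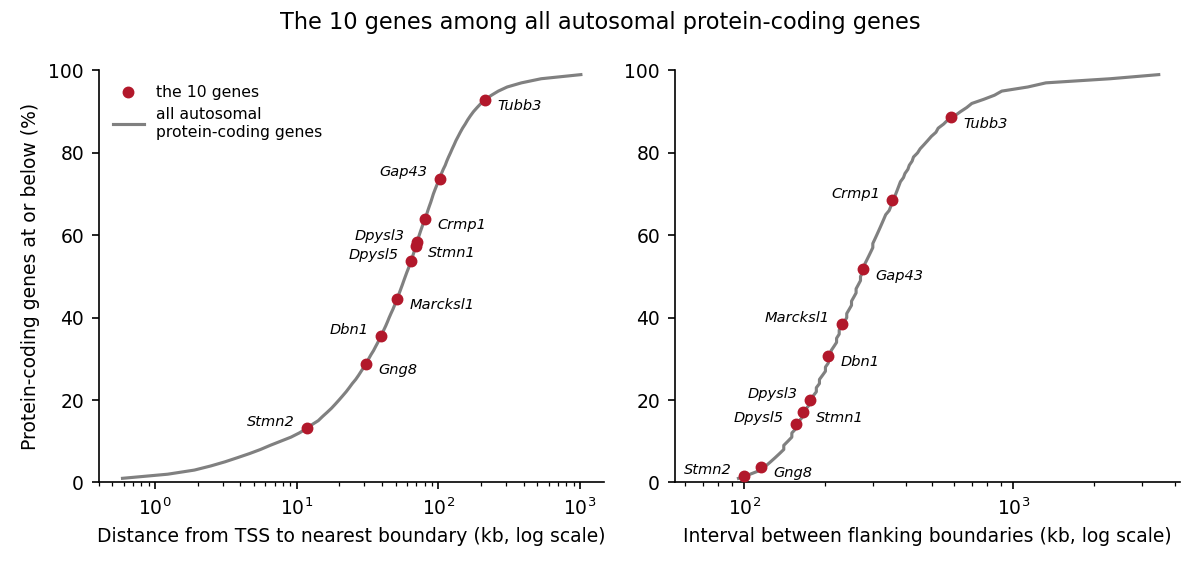
Left, distance from TSS to nearest boundary, and right, length of the interval between flanking boundaries, both in kb on a log axis, against the percentage of autosomal protein-coding genes at or below each value. Red points are the 10 genes and the grey line is all genes; Tubb3 is the highest of the 10 in both panels, Stmn2 the lowest, and 7 of the 10 intervals lie below the median of all genes (270 kb).

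The scores on the sides of a gene were usually unlike. Of the 20 flanking boundaries 10 were Strong and 10 Weak, and 8 of the 10 genes had 1 of each class, a pattern found for 48.8% of all genes. Dpysl3 had 2 Strong boundaries (39.5% of all genes) and Dbn1 had 2 Weak ones (11.7% of all genes). The score of the higher boundary was 5.24 times that of the lower at Crmp1, 4.49 times at Gap43, 4.15 times at Stmn1 and 1.21 times at Dpysl3. The nearest boundary was Strong for 7 of the 10 genes, with 65.3% among all genes. It was Weak for Gap43, Tubb3 and Dbn1, which therefore had their nearest Strong boundary at 173, 309 and 284 kb. The median score of the nearest boundary was 0.682 for the 10 genes and 0.695 for all genes. The nearest boundary lay upstream of 6 genes and downstream of Gng8, Stmn1, Crmp1 and Dpysl3, and it lay upstream for 51.9% of all genes.

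**Figure D3:**
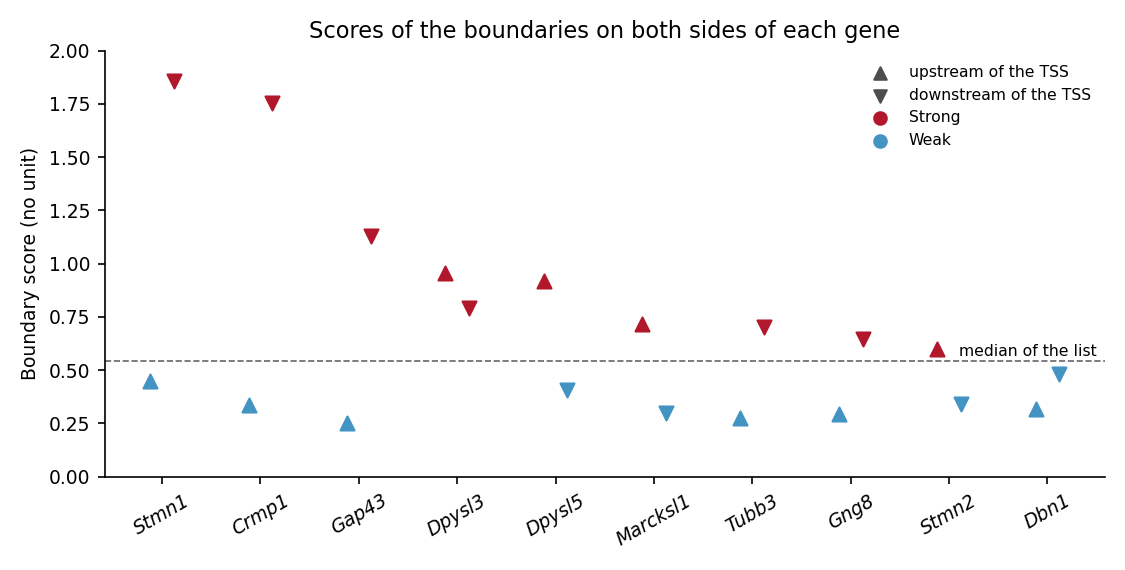
Score of the boundary upstream (triangle up) and downstream (triangle down) of each gene, with Strong boundaries in red, Weak ones in blue and the dashed line at the median of the whole list (0.545). Stmn1 and Crmp1 have downstream boundaries of 1.86 and 1.75, both boundaries of Dpysl3 are Strong, and both of Dbn1 are Weak.

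Apart from Dpysl3, the genes were held whole within an interval. A boundary midpoint lay inside the body of 1 of the 10 genes, and inside that of 13.2% of all genes. Long genes hold more boundaries, and 5 of the 10 genes (Stmn2, Crmp1, Dpysl5, Gap43 and Dpysl3) have bodies of 50 to 120 kb. Among all genes of that length 21.5% held one. Of the 9 uncrossed genes, Dpysl5 ended nearest to its downstream boundary (3.12 kb), then Gng8 (27.1 kb) and Crmp1 (30.4 kb), and Tubb3 ended farthest from it (360 kb). Protein-coding TSSs within 10 kb were found at 8 of the 20 flanking boundaries, and at 26.6% of all autosomal boundaries. These 8 lay on both sides of Marcksl1, Gng8 and Dbn1, downstream of Stmn1 and upstream of Dpysl5, and none of the TSSs was that of a member. The 26.6% counts every autosomal boundary once, whereas the 20 were picked because they flank genes. No share over the flanks of all protein-coding genes was computed.

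CTCF, the zinc finger protein that stalls cohesin at many domain borders, binds a sequence with a known core consensus. A search of both strands for the CTCF core consensus, a pattern of 12 positions of which 8 fix the base, 2 allow 2 bases and 2 allow any, found a match within 10 kb of 16 of the 20 flanking boundaries. Such a match lay near 59.0% of all autosomal boundaries and in 41.8% of windows of the same length, 20 kb, tiled along the autosomes. All 10 Weak flanking boundaries had one (47.0% of all Weak boundaries), and 6 of the 10 Strong ones did (69.0% of all Strong boundaries). Those without one were the downstream boundaries of Tubb3 and Crmp1 and both boundaries of Dpysl3. The search found 38 matches in all, up to 5 at a boundary (Marcksl1 downstream and Gng8 downstream), and 13 of the 38 pointed into the interval of the gene. No share for direction over all boundaries is given, so this count is a description. The shares of all, Weak and Strong boundaries count each boundary once and are not shares over the flanks of protein-coding genes. A match is a run of letters in the reference and not a measured binding site.

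The matches are of 2 kinds, and examples of each are shown with the core in capitals and 10 bases to either side, read 5' to 3' on the strand named. The first examples lie outside sequence that the reference marks as repeats by soft masking.
Gap43 downstream boundary, minus strand, chr16:42165123-42165134: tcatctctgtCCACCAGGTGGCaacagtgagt
Gap43 downstream boundary, plus strand, chr16:42165183-42165194: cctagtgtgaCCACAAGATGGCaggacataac
Gap43 upstream boundary, minus strand, chr16:42444907-42444918: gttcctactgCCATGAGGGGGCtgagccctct
Stmn2 downstream boundary, plus strand, chr3:8594889-8594900: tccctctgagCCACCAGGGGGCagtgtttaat
Dpysl5 downstream boundary, plus strand, chr5:30806304-30806315: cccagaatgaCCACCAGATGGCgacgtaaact
Dbn1 upstream boundary, plus strand, chr13:55527385-55527396: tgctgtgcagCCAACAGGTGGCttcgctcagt
Gng8 upstream boundary, minus strand, chr7:16809954-16809965: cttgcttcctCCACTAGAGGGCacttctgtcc

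The other kind lies in soft-masked sequence, where several boundaries have nearly the same letters on both sides of the core. The last example, at Crmp1, does not share these letters.
Tubb3 upstream boundary, plus strand, chr8:123196774-123196785: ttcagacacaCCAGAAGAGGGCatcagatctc
Marcksl1 downstream boundary, minus strand, chr4:129694735-129694746: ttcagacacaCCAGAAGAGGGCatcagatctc
Gng8 downstream boundary, plus strand, chr7:16927181-16927192: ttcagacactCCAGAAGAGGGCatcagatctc
Stmn1 downstream boundary, minus strand, chr4:134527922-134527933: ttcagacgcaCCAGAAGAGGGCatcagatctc
Crmp1 upstream boundary, plus strand, chr5:36959021-36959032: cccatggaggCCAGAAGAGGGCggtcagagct

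The matches at Tubb3 and Marcksl1 are identical over all 32 bases shown, and the one at Gng8 has an identical copy at the upstream boundary of Tubb3. Of the 38 matches 24 were in soft-masked sequence, and 70.3% of all autosomal matches were. The core printed in the repeat examples made up 19 of the 38 matches and 56.9% of all autosomal ones. Counted outside soft-masked sequence, a match lay near 10 of the 20 flanking boundaries and near 31.5% of all autosomal boundaries. Of the Weak flanking boundaries 6 of 10 then had a match (22.9% of all Weak boundaries), and of the Strong ones 4 of 10 (38.6% of all Strong boundaries). At the downstream boundary of Gap43 the paired matches on opposite strands were both inside the bin of 5 kb, 2.37 and 2.31 kb to the left of its midpoint. The Dbn1 match was 0.109 kb from the midpoint. At Stmn1 the only match near the highest-scoring boundary was a soft-masked one 9.57 kb from the midpoint.

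**Figure D4:**
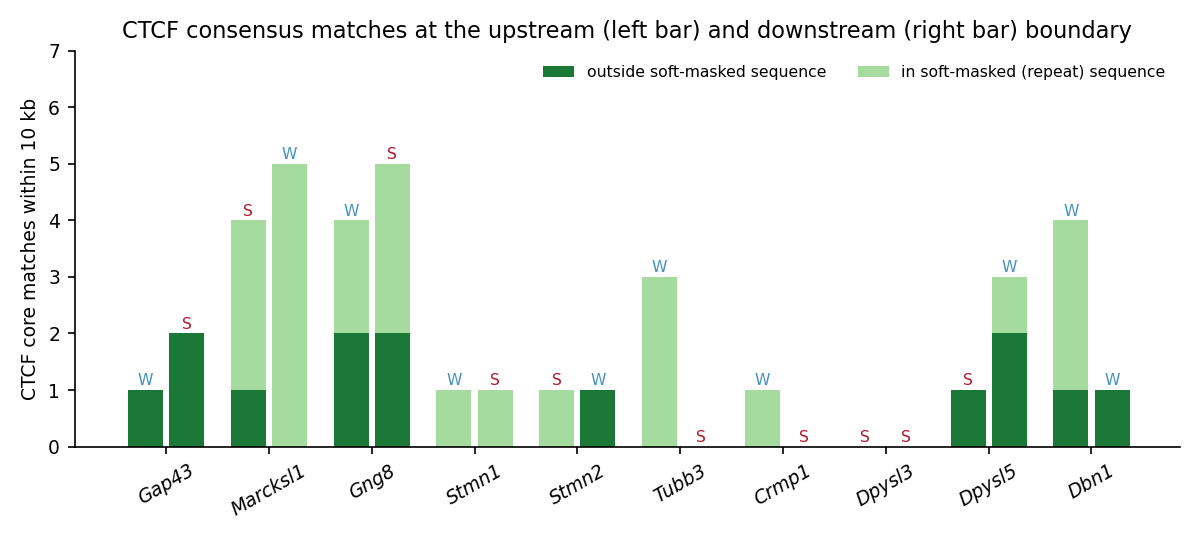
Number of CTCF core consensus matches within 10 kb of the upstream (left bar) and downstream (right bar) boundary of each gene, with matches outside soft-masked sequence in dark green, those inside it in light green and S or W for a Strong or Weak boundary. Both boundaries of Dpysl3 and the downstream ones of Tubb3 and Crmp1 have none, while those of Gap43 have matches outside repeats only.

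Promoter windows from RefSeq (GRCm38.p6), from 250 bases before to 50 after a start, were matched for 6 of the 10 genes, and not for Gap43, Stmn1, Stmn2 and Dpysl3. Crmp1 had 2 windows, and the one nearest to its annotated 5' end was used. Its principal transcript starts elsewhere, at 37245764. The starts of the windows used for Tubb3, Crmp1 and Dbn1 were 129, 118 and 35 bases from the annotated 5' ends. The dinucleotide CpG occurred 41 times in the window of Crmp1, 30 times in that of Dbn1, 26 in Tubb3, 22 in Marcksl1, 19 in Dpysl5 and 8 in Gng8, against a median of 7 over all 31396 autosomal windows. The GC content of the windows lay between 58.0% for Gng8 and 77.0% for Crmp1, against a median of 53% over all windows. The window of Gng8 was therefore near the median in CpG number, and the other 5 were well above it. These medians cover windows of 25748 genes without a filter by gene type. They are thus not medians of the 20807 protein-coding genes used for the distances.

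By their medians, with all boundaries and annotated 5' ends, 3 lists of related genes lay nearer to boundaries and in longer intervals than the 10 genes. A list of 24 paralogues had a boundary within 25 kb of 4 genes (16.7%), a list of 19 other outgrowth genes of 5 (26.3%) and a list of 16 genes of mature olfactory neurons of 6 (37.5%), beside 1 of the 10 (10.0%) and 24.3% of all genes. The paralogue list shares 7 genes with the outgrowth list and Gng13 with the mature list, and none of the listed genes lay in an interval of the 10. Median distances were 66.6 kb for the 10 genes, 50.4 kb for the paralogues, 52.0 kb for the outgrowth genes and 40.5 kb for the mature genes, and median intervals were 190 kb for the 10 genes, 240 kb for the paralogues, 270 kb for the outgrowth genes and 255 kb for the mature genes. These differences were not tested, and values of the lists are given for this setting only. From the starts of principal transcripts the median distance of the 10 genes was 57.6 kb. With Strong boundaries alone their median interval was 447.5 kb.

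By family, Stmn4 lay in an interval of 105 kb, close to that of Stmn2 (100 kb), while Stmn3 lay in one of 240 kb. Marcksl1 shared 230 kb with 12 other TSSs, while its paralogue Marcks had an interval of 720 kb with no other. From annotated 5' ends, Dpysl4 was nearer to a boundary (18.5 kb) than Crmp1, Dpysl3 and Dpysl5 (64.1 to 80.6 kb), and Dpysl2 (86.2 kb) was farther. From its principal start Dpysl3 was 25.9 kb from a boundary, and no such value is given for Dpysl4 or Dpysl2. The nearest boundary of Dpysl2 scored 2.21, the highest among the nearest boundaries of these collapsin response mediator genes. The G protein gamma gene of mature olfactory neurons, Gng13, had a Strong boundary (score 1.03) 0.329 kb from its TSS, where that of Gng8 lay 30.7 kb away, and among the gamma genes Gng3 was the farthest at 132 kb. Among the outgrowth genes, boundaries lay within 10 kb of Map1b (0.960 kb), a microtubule-binding protein gene, Cfl1 (2.04 kb), the actin-severing cofilin gene, Ncam1 (3.58 kb), a cell adhesion gene, and Basp1 (8.74 kb), which encodes a growth cone protein related in function to that of Gap43. Of these boundaries only that at Basp1 was Strong. The doublecortin kinase gene Dclk1 was the farthest of that list at 125 kb, and Reep1, which encodes a helper of receptor transport, was the farthest of the mature list, also at 125 kb.

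**Figure D5:**
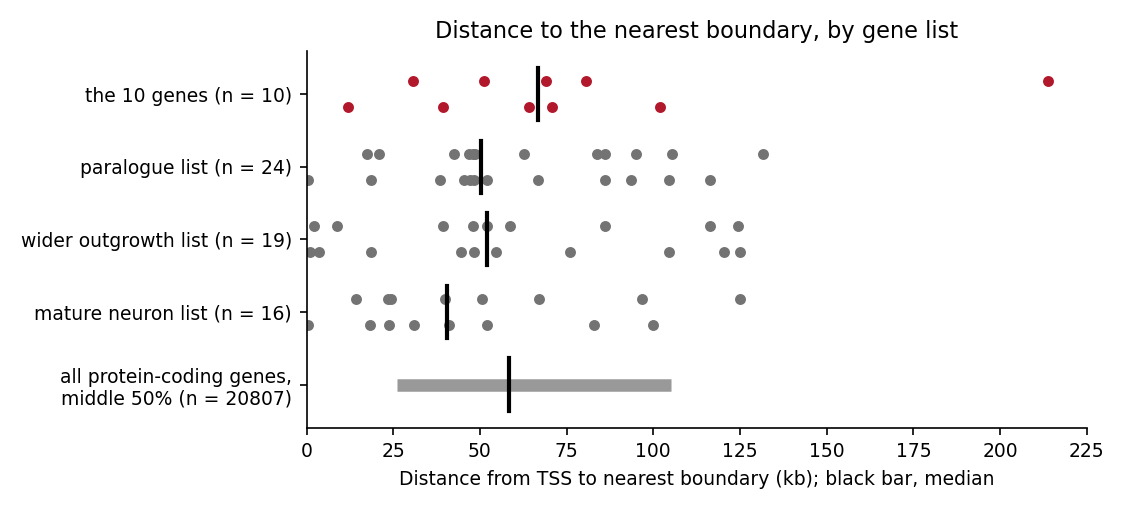
Distance from TSS to nearest boundary in kb for each of the 10 genes (red) and the genes of the paralogue, outgrowth and mature neuron lists (grey), with medians as black bars and the middle 50% of all autosomal protein-coding genes as a grey band. Tubb3, at 214 kb, lies beyond every gene of the other lists, and the medians run from 40.5 kb for the mature list to 66.6 kb for the 10 genes.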

How the data were processed

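The deposited list gives each boundary a position, a class and a score; per the series' design text in the labels, the authors called it on 1 matrix that pools the contacts of the replicates, on GRCm38. No source used here names the caller, its window, the aligner or the filters. Contact matrix and signal tracks were not analysed here. From this list, distances, scores, interval lengths and neighbours were computed for every autosomal protein-coding gene of GENCODE M21 with Python 3.11.15, numpy 2.4.6 and pandas 2.3.3. Genes beyond the outermost boundaries have no interval, which left 20621 of 20807. Sequence came from the RefSeq copy of GRCm38.p6, a C57BL/6J genome, so rearrangements of the 129P2/OlaHsd strain are not seen. The distance code recovered known answers on simulated data. No statistical test was made, since both replicates share 1 list.

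The members and lists were chosen with earlier results of these data known. Named are the 10 genes, their nearest neighbours, the genes nearest to their boundaries, and list members within 10 kb of a boundary or farthest from one. Genes at their more distant boundaries, the family comparisons and the Jakmip, Stk32 and Ppp2r2 genes were picked with their values in view. The X-linked Dcx, L1cam and Cnga2 were left out of the lists. Alternatives were stronger boundaries alone, another TSS, bin edges, other distances and genes of any type. Genes of 50 to 120 kb alone and matches outside soft-masked sequence were added after seeing the data.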

Additional observations from a re-analysis of the deposited data

How the results depend on the processing

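Of 26 values recomputed under alternatives, 19 stayed within 1.5 times the reported one. They are not 26 separate checks. Strong boundaries alone and boundaries scoring at or above the median of the list gave the same value for each result recomputed. The count of genes with a boundary in the body could not change among genes of 50 to 120 kb, since Dpysl3 is one of them. The median interval of the 10 genes was 447.5 kb with Strong boundaries alone and with boundaries scoring at or above the median of the list, against 190 kb with all boundaries. The same settings gave 460 and 495 kb for all genes, so with Strong boundaries alone the medians of the 10 genes and of all genes differed little, and 5 of the 10 genes were below the median of all genes, against 7 with all boundaries. The median score of the nearest boundary was then 1.02 in both settings, since low scores are left out. The count of genes near a boundary was 0 at 10 kb and 3 at 50 kb. Flanking boundaries with a CTCF core match were 10 outside soft-masked sequence, against 16 in all. No paired analysis was possible because the list combines both replicates, and for the same reason neither could be left out. The unknown number of contacts limits how finely boundaries are placed and whether weak ones are found.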
